A study of Mus musculus with 25 samples.

Results

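The axon guidance ligands and receptors examined here are 67 protein-coding mouse genes: 34 that encode secreted or membrane-bound ligands and 33 that encode the receptors these ligands bind. They were taken by gene symbol, as every protein-coding gene of the sorted-cell table named for a semaphorin of classes 3 to 7, a plexin, a neuropilin, an ephrin, an Eph receptor, a slit, a robo, a netrin or an Unc5 receptor. The set was chosen with earlier results of these data known. They make up 67 of 43693 genes in that table, of which 21882 are protein-coding, and all 67 have a row in each of the 4 deposited tables. By family they are 7 class 3 semaphorins, 13 semaphorins of classes 4 to 7, 9 plexins, 2 neuropilins, 5 ephrins A, 3 ephrins B, 9 EphA receptors, 5 EphB receptors, 3 slits, 4 robos, 3 netrins and 4 Unc5 receptors.

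The study sequenced RNA from 25 mouse libraries after contusion of the spinal cord. In 11 of them the RNA came from tdTomato-positive cells sorted from the lesion epicentre of GFAP-Cre-/+:R26-tdT-/+ mice, in which a Cre recombinase named for the astrocyte gene Gfap switches on a red reporter, so every cell with past Cre activity is marked. Sham mice had a laminectomy at T9 and were taken 7 days later (3 libraries), and injured mice had in addition a 60 kdyn contusion at that level and were taken after 7 days (3 libraries), 1 month (3 libraries) or 3 months (2 libraries, labelled replicates 1 and 3). Another 6 libraries came from unsorted epicentre tissue of C57BL/6 mice, 3 at 1 month and 3 at 3 months after the same injury, with no sham tissue among them. Each sorted or tissue library pooled 3 mice, and the labels give no age for the animals. The remaining 8 libraries are primary astrocytes grown from the brains of C57BL/6 pups of postnatal days 4 to 7 and carrying a control lentivirus (genotype WT) or a lentivirus against the long non-coding RNA Zeb2os (genotype Zeb2os -/-) or against the transcription factor Zeb2 (genotype Zeb2 -/-), with 2 libraries in each arm of each set and puromycin at 1 µg/ml added after 24 h in the Zeb2os set and after 48 h in the Zeb2 set. The labels write these genotypes as null alleles although the protocols describe knockdown, so they are called knockdown libraries here. All sorted groups share the 7-day sham libraries as their reference, so at 1 and 3 months injury and time since surgery cannot be told apart. Nothing in the labels says whether the culture libraries came from separate cultures, so p-values in those sets may reflect technical spread alone.

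Axon guidance molecules steer growing axons and migrating cells by attraction or repulsion at a distance or on contact. Class 3 semaphorins are secreted and mostly bind neuropilins, which signal through plexins, whereas most semaphorins of classes 4 to 7 are anchored in the membrane and bind plexins directly. Ephrins and Eph receptors act between touching cells and can signal in both, slits act through robos, and netrins act through Dcc and Unc5 receptors. In the injured spinal cord these families are best known as inhibitors of axon regrowth made by scar-forming cells and by myelin, and they also guide blood vessels, immune cells and oligodendrocyte precursors.

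Total counts per library ran from 15712423 (sham replicate 3) to 50211071 in sorted cells, from 15423131 to 27138885 in tissue, from 45627745 to 158099842 in the Zeb2os set and from 29027058 to 65434619 in the Zeb2 set. Levels are in CPM, counts scaled to a common library size with TMM factors. The sorted cells carried the marker genes of several cell types, and oligodendrocyte precursor genes exceeded the gene that names the Cre line: Gfap was between 166 and 354 CPM in sham, between 1135 and 1440 at 7 days, between 197 and 264 at 1 month and between 168 and 177 at 3 months, whereas Pdgfra, which marks oligodendrocyte precursors, was at 2133 to 2663, 1499 to 1843, 2588 to 2768 and 1653 to 1777 CPM. The 12 oligodendrocyte precursor markers summed to between 11330 and 13890 CPM in sham libraries, and the 15 astrocyte markers summed to between 8049 and 10120 CPM there. After injury the astrocyte sum was 3580 to 4159 CPM at 7 days, between 2675 and 2746 at 1 month and between 2561 and 2610 at 3 months, with no marker of that list at 0. The precursor sum was 12910 to 14220, 14430 to 14670 and 8757 to 10430 CPM at the same times. The 17 microglia and macrophage markers summed to 579 to 2562 CPM in sham. Their sum was between 6354 and 9479 CPM after 7 days, between 5216 and 8278 after 1 month and between 12850 and 16930 after 3 months. The 13 endothelial markers summed to 84.4 to 278 CPM in sham, and to 718 to 838, 401 to 414 and 650.1 to 891 CPM at the successive times. Fibroblast and mural markers (13 genes) summed to 159.5 to 624.5, 3224 to 3431, 1755 to 1901 and 1379 to 1391 CPM in the same order. Sham libraries differed among themselves: replicate 1 held the highest microglia and endothelial sums, and replicate 3 held the highest fibroblast sum and a Schwann cell sum of 1641 CPM against at most 375 in the others. These sums change with injury in the same libraries as the guidance genes, and their part in the changes below was not tested. In bulk RNA, a gene that is lower because fewer cells of a type were present cannot be told apart from one that is lower because each cell held less RNA.

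**Figure D1:**
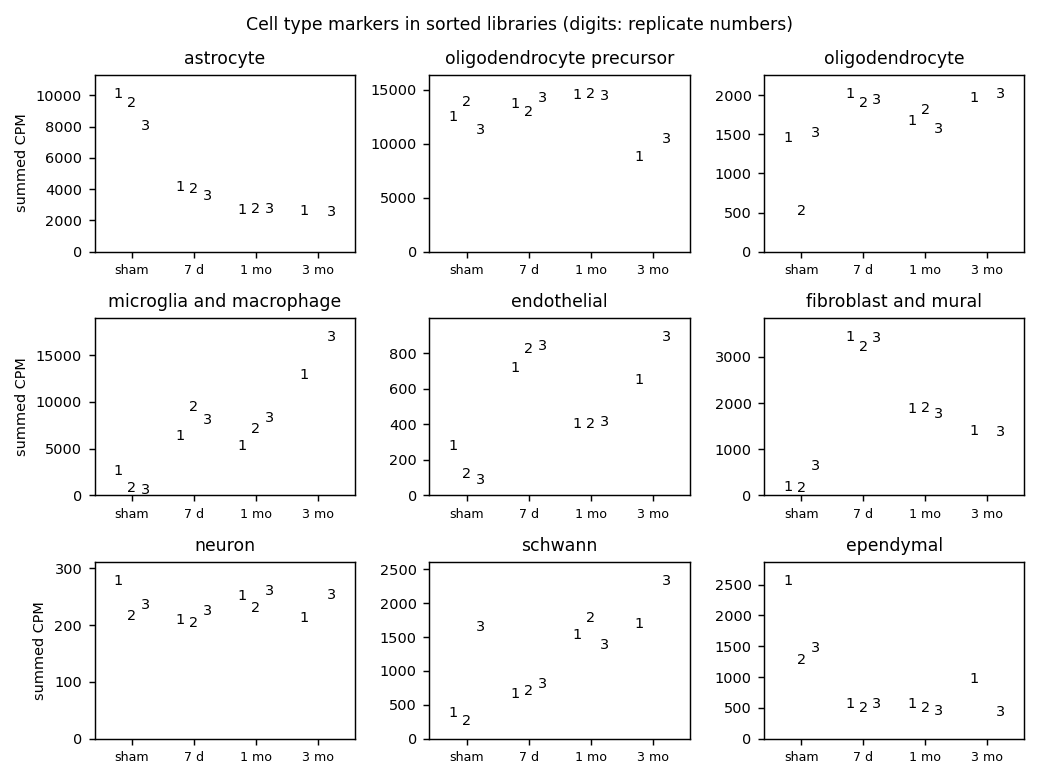
Summed level of each marker list in every sorted library (vertical axis, CPM, from 0) by group (horizontal axis); each digit is a library, printed as its replicate number. Astrocyte marker sums sit between 8049 and 10120 CPM in sham and at most at 4159 CPM in every injured library, while microglia and fibroblast sums are higher in every injured library than in any sham library.

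Promoter sequences are shown because one arm of the study lowers Zeb2, a repressor that binds the E-box letters CACCTG and its reverse complement CAGGTG. RefSeq's table for GRCm38.p6 (the mm10 build) matched 58 of the 67 genes by symbol, with 74 start sites between them. In the 250 bases before the start, either form of the motif was present for 10 of the 58 genes, or in 13.5% of their 74 promoters, against 17.2% of all 32851 promoters in the table. The 4 promoters below belong to genes that hold the motif and rose in sorted cells at 7 days. They are the receptor gene Ephb2 on the minus strand of chr4:136836013-136836262, the secreted Sema3d on the plus strand of chr5:12382916-12383165, and the membrane-bound Sema4c and Sema4f on the minus strands of chr1:36558382-36558631 and chr6:82939770-82940019. Each sequence reads 5′ to 3′ along the gene's strand and ends at the base before the start site, with the motif in capitals.
Ephb2: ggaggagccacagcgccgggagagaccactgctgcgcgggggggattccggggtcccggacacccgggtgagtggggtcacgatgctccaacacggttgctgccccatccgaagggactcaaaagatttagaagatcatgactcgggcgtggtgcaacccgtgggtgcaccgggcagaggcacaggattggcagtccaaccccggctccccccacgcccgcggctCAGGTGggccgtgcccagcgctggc
Sema3d: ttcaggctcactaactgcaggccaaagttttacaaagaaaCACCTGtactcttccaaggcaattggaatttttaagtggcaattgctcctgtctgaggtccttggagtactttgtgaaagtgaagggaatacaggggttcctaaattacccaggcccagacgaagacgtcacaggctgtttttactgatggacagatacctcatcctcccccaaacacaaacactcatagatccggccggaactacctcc
Sema4c: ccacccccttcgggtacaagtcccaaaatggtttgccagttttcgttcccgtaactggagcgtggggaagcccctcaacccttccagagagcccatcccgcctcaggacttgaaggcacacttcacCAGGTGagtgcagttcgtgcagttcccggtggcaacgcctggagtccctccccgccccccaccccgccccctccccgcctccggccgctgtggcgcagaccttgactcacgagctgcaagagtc
Sema4f: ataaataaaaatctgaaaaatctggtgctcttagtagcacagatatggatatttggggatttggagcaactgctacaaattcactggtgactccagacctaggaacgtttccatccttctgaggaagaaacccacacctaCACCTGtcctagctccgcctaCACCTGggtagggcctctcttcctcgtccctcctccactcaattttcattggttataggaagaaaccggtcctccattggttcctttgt
The motif begins 25 bases before the start in Ephb2, 210 in Sema3d and 124 in Sema4c, and in Sema4f at 110 and again at 89. Of the other 6 genes with the motif, Robo1 and Sema6d fell at 7 days, Efnb2, Epha1 and Plxnb2 did not pass edgeR's test there, and Robo3 was too low to test. A match of these letters is a description of the window and not evidence of binding.

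Levels between genes are compared per kilobase of annotated exon. Across all sorted libraries the highest guidance gene was Ntn1, which encodes netrin-1, a secreted cue that attracts or repels axons, at 57.7 CPM per kb in sham and 62.9, 64.4 and 49.0 at 7 days, 1 month and 3 months. Next came Plxnb2, a receptor for class 4 semaphorins, at 58.0, 53.4, 53.0 and 64.3 CPM per kb. The levels of these leading genes lay close together, and their order changed between groups. Sema3d, a secreted class 3 semaphorin, followed at 25.7 CPM per kb in sham and 61.9 at 7 days, and then Plxnb3 at 18.8 and 39.1. Ranked the same way within each family, by the mean over all sorted libraries and with sham levels in brackets, Sema7a (20.1 CPM per kb in sham) and Sema6d (23.2) led the membrane-bound semaphorins. Ephb6 (13.2) and Ephb3 (9.61) led the EphB receptors, Epha4 (5.35) and Epha2 (2.45) the EphA receptors, although Epha5 (2.92) exceeded Epha2 in sham, Efnb1 (10.7) and Efnb3 (10.1) the ephrins B, and Efna1 (7.71) and Efna2 (7.20) the ephrins A. The slits were low, with Slit1 at 2.58 and Slit2 at 0.780 CPM per kb, while their receptors Robo1 and Robo4 stood at 9.66 and 0.531 in sham, where Robo2, at 2.25, exceeded Robo4. Nrp2 (5.58) stood above Nrp1 (1.21), Ntn4 (4.85) followed Ntn1 among netrins, and Sema3b (11.0) followed Sema3d among class 3 semaphorins. Unc5a (7.10) and Unc5c (4.53) led the Unc5 receptors.

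The order differed in the other kinds of sample, which were scaled separately and are set side by side only as levels. In tissue at 1 month the leading gene was Efnb3, which encodes the ephrin B3 of myelinating oligodendrocytes, at 81.0 CPM per kb, against 10.1 in sham sorted cells. Ntn1 stood at 6.34 and Sema3d at 2.35 CPM per kb in that tissue. In cultured control astrocytes Plxnb2 led both sets, at 55.95 and 103 CPM per kb, followed by Sema7a at 22.5 and 84.8. Plxnb3, high in sorted cells, was at 0.205 and 0.170 CPM per kb in the cultured controls, where oligodendrocyte precursor markers summed to between 398.9 and 739 CPM. The part of precursor cells in the Plxnb3 level was not tested. Every library reached at least 1 CPM for 56 of the 67 genes in sham sorted cells, 61 at 7 days, 67 in tissue at 1 month and 57 in the Zeb2 controls.

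**Figure D2:**
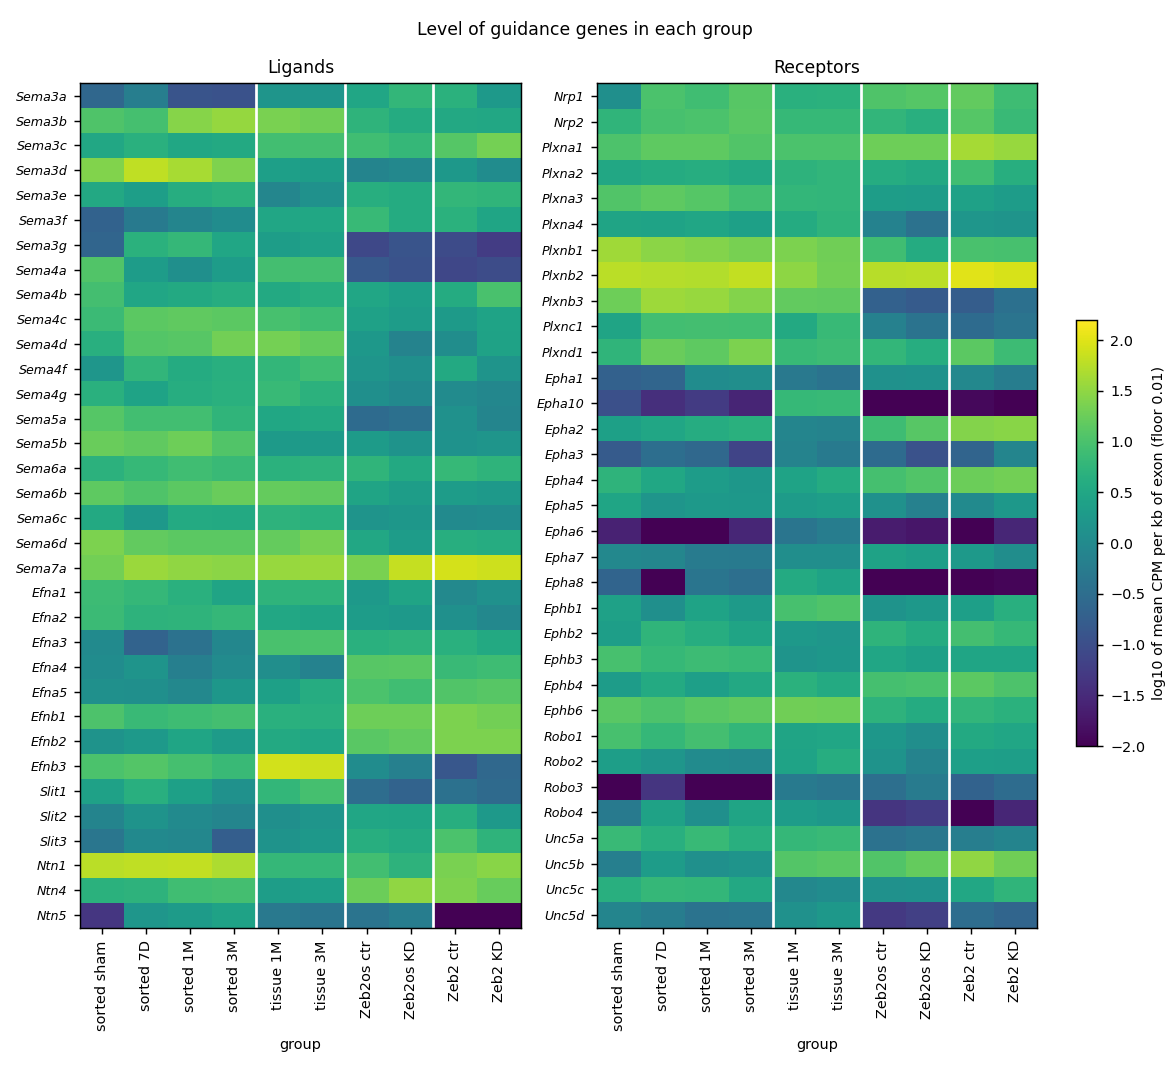
Mean level of each guidance gene (rows, grouped by family) in each group of libraries (columns), coloured by log10 of CPM per kb of exon with values under 0.01 drawn at 0.01; white lines separate tables that were scaled separately. Ntn1, Plxnb2 and Sema3d are bright in every sorted group, Efnb3 is brightest in tissue, and Plxnb3 is dark in all cultured groups.

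At 7 days after contusion, 24 guidance genes differed from sham in sorted cells. Nrp1, Sema3g, Plxnc1 and Sema4d were among those that rose, and Sema4a, Sema4b and Robo1 among those that fell. Of 66 genes tested, 15 rose (22.7%) and 9 fell (13.6%), where 9.87% of all 24286 genes tested rose and 8.41% fell at an adjusted p under 0.05 (edgeR quasi-likelihood test with Benjamini-Hochberg adjustment over all genes). Among protein-coding genes alone the shares were 14.0% and 11.1%. The median log2 change was 0.16 over the guidance genes and -0.06 over all genes tested. The gene left out was Robo3, whose count was 0 in all 3 sham libraries and at most 21 elsewhere in sorted cells. At 1 month 15 rose (22.7%) and 5 fell (7.58%), against 6.23% and 5.83% of all genes. Of protein-coding genes 8.6% rose and 7.8% fell at 1 month, so the share of guidance genes that fell was near that of coding genes. At 3 months 11 rose and 8 fell, against 6.78% and 4.93% of all genes. The share of guidance genes that rose at 3 months was 16.7%, where 9.27% of protein-coding genes rose, and 12.1% fell, where 6.68% of protein-coding genes did. The 3 comparisons share their sham libraries, so each gene's values are given side by side and a repeated call is not separate evidence. Guidance genes that did not pass the edgeR test as fitted here may still pass under an alternative setting or with a library left out. This was so for 18 at 7 days, 13 at 1 month and 18 at 3 months. How many of all genes gained a call in this way was not counted, so these numbers are not read as particular to guidance genes. Leaving out 1 library at a time moved the 7-day count between 17 (without 7-day replicate 2) and 31 (without sham replicate 1), the 1-month count between 13 (without 1-month replicate 3) and 25, and the 3-month count between 9 (without 3-month replicate 3) and 27 (without sham replicate 3). Fitted with the 2 groups concerned alone, Sema4g, Sema6d and Epha5 lost their call at 7 days, Sema4f, Sema3f, Sema7a and Plxnb1 at 1 month, and 11 of 19 genes at 3 months, where the 8 that kept it were Nrp1, Nrp2, Sema3g, Sema4d, Sema4a, Epha4, Plxnc1 and Plxnd1.

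**Figure D3:**
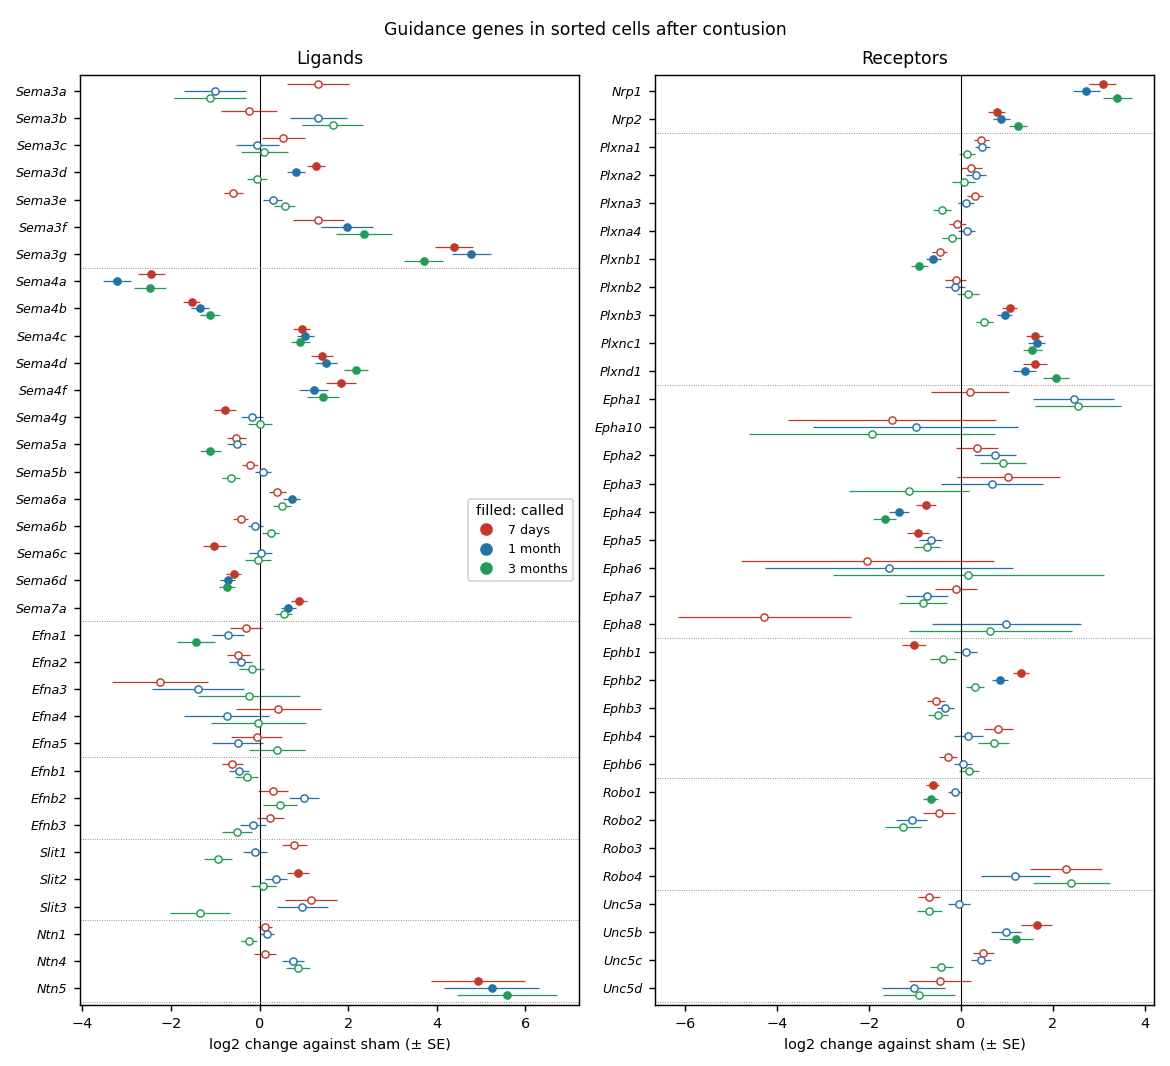
Log2 change against sham of 66 guidance genes in sorted cells (horizontal axis, ± SE) at 7 days (red), 1 month (blue) and 3 months (green), with ligands on the left and receptors on the right; filled points passed the test and open points did not. Both neuropilins lie to the right of 0 at each time, and Sema4a, Sema4b and Epha4 lie to the left.

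The neuropilins, co-receptors for class 3 semaphorins and for vascular endothelial growth factor, both rose. Nrp1 (chr8:128358604-128503363 on the plus strand of mm10) was at 16.9, 13.0 and 5.75 CPM in the 3 sham libraries and at 94.4, 121 and 89.2 at 7 days, 68.4, 77.7 and 92.4 at 1 month and 113 and 139.6 at 3 months. Every injured library lay far above every sham library, and the lowest injured value was that of 1-month replicate 1. The log2 change was 3.08 ± 0.30 at 7 days (SE, n = 3 and 3, edgeR adjusted p = 5.79e-06), 2.73 ± 0.29 at 1 month (adjusted p = 2.37e-05) and 3.40 ± 0.32 at 3 months (adjusted p = 5.25e-06). Nrp2 was at 63.3, 49.7 and 85.3 CPM in sham, 111, 125 and 103 at 7 days, 121, 132 and 110.1 at 1 month and 154 and 158 at 3 months, also without overlap. Its log2 change was 0.78 ± 0.19, 0.88 ± 0.19 and 1.24 ± 0.20 (edgeR adjusted p = 0.0079, 0.00545 and 0.000781). Both kept their call under each alternative setting and with each library left out. Among the injured groups both Nrp1 and the endothelial marker sum were lowest at 1 month. The microglia and macrophage sum also had its lowest injured value there, at 5216 to 8278 CPM. It was 6354 to 9479 CPM at 7 days, which overlaps, and 12850 to 16930 CPM at 3 months. The part of endothelial cells, microglia or macrophages in the Nrp1 change was not tested.

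Class 3 semaphorins, the secreted ligands of these co-receptors, changed in part. Sema3g, which is known from blood vessels, was low in sham, at 1.34, 0.369 and 1.51 CPM, and stood at 16.2, 20.01 and 29.9 CPM at 7 days, 29.1, 29.7 and 27.8 at 1 month and 11.3 and 16.3 at 3 months. Its log2 change was 4.39 ± 0.43, 4.78 ± 0.44 and 3.71 ± 0.44 (edgeR adjusted p = 6.46e-06, 6.95e-06 and 4.53e-05). No injured library overlapped sham, and the 3-month libraries lay at or below the lower end of the other injured ones. Sema3d, whose promoter is printed above, started from a high level, 265, 238 and 159 CPM in sham, and reached 618, 588 and 391 at 7 days and 398, 369.8 and 402 at 1 month. At 3 months it was at 220.5 and 204 CPM, within the sham range. The rise was 1.27 ± 0.21 on the log2 scale at 7 days (edgeR adjusted p = 0.000483) and 0.82 ± 0.21 at 1 month (adjusted p = 0.0154), and the 3-month difference of -0.06 ± 0.23 did not pass (adjusted p = 0.923). The 1-month call of Sema3d was lost without 1-month replicate 1 or 3.

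Sema3f, a repellent that acts mainly through Nrp2, was low throughout: 0.904, 0.772 and 1.63 CPM in sham, 2.36, 2.74 and 3.12 at 7 days, 5.72, 3.39 and 3.78 at 1 month and 5.504 and 5.76 at 3 months. It passed at 1 month (log2 1.97 ± 0.58, edgeR adjusted p = 0.0379) and 3 months (2.36 ± 0.63, adjusted p = 0.0222), and the 1-month call was lost with no low-count filter, without sham replicate 1 or 2 and without any 1-month library, and the 3-month call without sham replicate 2 or either 3-month library. At 7 days Sema3f passed DESeq2's Wald test (adjusted p = 0.018) and edgeR's test without sham replicate 3 (adjusted p = 0.0448), but not as fitted here. Sema3a, the best studied scar-associated repellent, was at 7.11, 1.58 and 1.70 CPM in sham and 10.3, 12.1 and 3.86 at 7 days, with overlapping groups and a log2 difference of 1.33 ± 0.70 (adjusted p = 0.228). Without sham replicate 1 that difference was 2.41 (edgeR adjusted p = 0.03). Sema3b, a secreted ligand of neuropilins, varied widely among sham libraries, at 23.2, 6.74 and 128 CPM. The high value is that of sham replicate 3, the library with the high Schwann cell sum. Its 7-day values were 32.1, 38.5 and 62.0 CPM, and the log2 difference of -0.24 ± 0.63 (adjusted p = 0.86) became 1.56 without that sham library (adjusted p = 0.0115). At 1 month Sema3b was at 128, 146 and 119 CPM, and the log2 difference of 1.33 ± 0.64 (edgeR adjusted p = 0.216) became 3.13 without that library (adjusted p = 0.000179). At 3 months it was at 139.8 and 187 CPM, and 1.65 ± 0.70 (edgeR adjusted p = 0.15) became 3.45 without it (adjusted p = 9.73e-05). Both later differences also passed with no low-count filter. Leaving out sham replicate 3 keeps sham libraries with Schwann cell sums of 375 and 263.7 CPM, against 1641 CPM in the library removed. The 3-month libraries held Schwann cell sums of 1686 and 2333 CPM. Those of the 1-month group lay between 1388 and 1780 CPM, and those of the 7-day group between 662.9 and 811.7 CPM. The part of Schwann cells in the Sema3b differences was not tested. Each 1-month library of Sema3b lay above each 7-day library (log2 1.57 ± 0.64, edgeR adjusted p = 0.254), which passed with no filter (adjusted p = 5.71e-12) and with the 2 groups alone. Sema3c did not pass edgeR's test at any time but did without sham replicate 3, at log2 1.76, 1.18 and 1.33 at 7 days, 1 month and 3 months (adjusted p = 0.00058, 0.0116 and 0.00822). Sema3e did not pass edgeR's test at any time, and its sign without 1 sham library differed between times: -0.68 at 7 days without replicate 1 (adjusted p = 0.045) and 0.76 at 3 months without replicate 3 (adjusted p = 0.0422).

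Plexins are the signal-transducing receptors of all semaphorin classes. Of 9 plexins, 3 rose and none fell at 7 days, 3 rose and 1 fell at 1 month, and 2 rose and 1 fell at 3 months. Plxnc1 (chr10:94790866-94944835, minus strand), the receptor for Sema7a, was at 25.7, 26.8 and 18.8 CPM in sham and 64.8, 74.6 and 77.0 at 7 days, 67.5, 71.9 and 84.0 at 1 month and 77.2 and 62.5 at 3 months. It sat on a plateau above sham, with log2 changes of 1.60 ± 0.18, 1.64 ± 0.18 and 1.55 ± 0.20 (edgeR adjusted p = 2.66e-05, 3.38e-05 and 8.58e-05). Plxnd1, the vascular receptor for Sema3e, was at 24.7, 40.4 and 58.5 CPM in sham, 107, 136 and 133 at 7 days, 113, 116 and 92.6 at 1 month and 137 and 209 at 3 months. The 3-month libraries were far apart, and both exceeded every 1-month library. The log2 change was 1.61 ± 0.26, 1.38 ± 0.26 and 2.07 ± 0.28 (edgeR adjusted p = 0.000415, 0.00219 and 0.000153).

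Plxnb3, a plexin of the oligodendrocyte lineage, was at 114, 103 and 148 CPM in sham, 256, 258 and 249 at 7 days, 251, 232 and 224 at 1 month and 153 and 194 at 3 months. It rose by 1.06 ± 0.17 at 7 days and 0.95 ± 0.17 at 1 month on the log2 scale (edgeR adjusted p = 0.000348 and 0.00135), and the 3-month difference of 0.51 ± 0.18 did not pass (adjusted p = 0.0874). That difference passed DESeq2's Wald test (adjusted p = 0.0268) and edgeR's test without sham replicate 3 (adjusted p = 0.0178). Plxnb1, a receptor for Sema4d, was at 429.9, 429.9 and 306 CPM in sham, 282, 258 and 303 at 7 days, 257, 279.6 and 232 at 1 month and 210.3 and 204 at 3 months. Its difference of -0.47 ± 0.17 at 7 days did not pass (adjusted p = 0.0648), and those of -0.60 ± 0.17 at 1 month and -0.91 ± 0.19 at 3 months did (edgeR adjusted p = 0.0266 and 0.00506), although the 1-month call was lost without any 1-month library and the 3-month call without 3-month replicate 3. At 7 days Plxnb1 passed edgeR's test with DESeq2's size factors and without sham replicate 3 (adjusted p = 0.0463 and 0.0111). It also passed DESeq2's Wald test there (adjusted p = 0.0117). Plxnb2 and the 4 plexins A, receptors that pair with neuropilins or class 6 semaphorins, did not pass edgeR's test against sham at any time. Without sham replicate 1, Plxnb2 passed at 3 months (log2 0.54, adjusted p = 0.027), and Plxna1 passed DESeq2's Wald test at 7 days and 1 month (adjusted p = 0.0323 and 0.0273). Plxnb2 was at 661, 352 and 329 CPM in sham, with replicate 1 above all other sorted libraries.

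Semaphorins of classes 4 to 7 split between rises and falls: 4 of 13 rose and 5 fell at 7 days, 5 rose and 3 fell at 1 month, and 3 rose and 4 fell at 3 months. Sema4d, a membrane ligand of plexins B that is known from immune cells and oligodendrocytes, was at 50.4, 24.4 and 28.3 CPM in sham, 85.7, 95.6 and 93.8 at 7 days, 73.1, 108 and 109 at 1 month and 137 and 173 at 3 months. The highest sham value was in replicate 1, the sham library with the highest microglia sum, and the 3-month libraries were highest in both. The log2 change was 1.42 ± 0.25, 1.50 ± 0.25 and 2.17 ± 0.27 (edgeR adjusted p = 0.000761, 0.000813 and 6.41e-05), and the part of microglia in it was not tested. Sema4f was at 5.21, 5.91 and 14.9 CPM in sham and 26.6, 31.9 and 33.8 at 7 days, 19.9, 19.5 and 20.8 at 1 month and 21.2 and 25.3 at 3 months. It was highest at 7 days, with a log2 change of 1.84 ± 0.33 (edgeR adjusted p = 0.00107), then 1.23 ± 0.33 and 1.44 ± 0.36 (adjusted p = 0.0226 and 0.0154), and its 1-month call was lost without sham replicate 1 or 2 or without any 1-month library, and its 3-month call without 3-month replicate 3.

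Sema4c, a ligand of Plxnb2, was at 24.8, 33.5 and 41.2 CPM in sham, 59.0, 63.4 and 69.0 at 7 days, 66.7, 56.8 and 79.9 at 1 month and 60.2 and 65.2 at 3 months. The log2 changes were 0.95 ± 0.20, 1.03 ± 0.20 and 0.92 ± 0.22 (edgeR adjusted p = 0.00302, 0.00262 and 0.0109), the last lost without 3-month replicate 3. Sema7a, which is tethered by a lipid anchor and binds Plxnc1 and integrins, was at 53.8, 65.3 and 80.0 CPM in sham, 122, 111 and 137 at 7 days, 108, 108 and 96.0 at 1 month and 85.9 and 108 at 3 months. It rose by 0.89 ± 0.17 at 7 days (edgeR adjusted p = 0.00186) and 0.65 ± 0.17 at 1 month (adjusted p = 0.0226), the latter lost without sham replicate 1 or any 1-month library, and the 3-month difference of 0.55 ± 0.19 did not pass (adjusted p = 0.0817). The 3-month difference passed DESeq2's Wald test (adjusted p = 0.0363) and edgeR's test without sham replicate 3 (adjusted p = 0.0223). Sema6a, a transmembrane ligand of plexins A, was at 48.8, 49.5 and 31.2 CPM in sham and 71.0, 67.5 and 75.2 at 1 month. The log2 change at 1 month was 0.72 ± 0.19 (edgeR adjusted p = 0.0187), lost without 1-month replicate 1 or 3, and the differences of 0.40 ± 0.19 at 7 days and 0.51 ± 0.21 at 3 months did not pass.

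The largest fall among genes that passed was that of Sema4a (chr3:88435959-88461182, minus strand), an immune and neural semaphorin. It was at 34.8, 86.8 and 65.0 CPM in sham and 13.0, 12.5 and 8.74 at 7 days, 7.43, 6.85 and 5.63 at 1 month and 11.7 and 10.7 at 3 months. Sham libraries were widely spread, yet the lowest of them exceeded every injured library. The log2 change was -2.45 ± 0.30, -3.23 ± 0.31 and -2.47 ± 0.36 (edgeR adjusted p = 5.2e-05, 1.06e-05 and 0.000269). Sema4b was at 46.2, 58.0 and 47.0 CPM in sham and 16.4, 19.4 and 16.4 at 7 days, 20.2, 18.6 and 20.7 at 1 month and 22.4 and 24.1 at 3 months, a narrow band in each group. Its log2 changes were -1.54 ± 0.19, -1.35 ± 0.19 and -1.12 ± 0.22 (edgeR adjusted p = 5.74e-05, 0.000297 and 0.00322). The astrocyte marker sum was lower over the same groups, and the 10 ependymal markers summed to between 1283 and 2565 CPM in sham, 499 and 572 at 7 days, 454 and 558 at 1 month and 430.5 and 976 at 3 months. The part of either cell type in these changes was not tested.

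Sema6d, a transmembrane ligand of Plxna1, was at 208, 243 and 283 CPM in sham and 174, 173 and 143 at 7 days, 166, 145 and 136 at 1 month and 162 and 132 at 3 months. The log2 changes were -0.58 ± 0.17, -0.72 ± 0.17 and -0.74 ± 0.19 (edgeR adjusted p = 0.0229, 0.00988 and 0.019). These calls are among the least stable: the 7-day call was lost without sham replicate 3 or any 7-day library, the 1-month call without 1-month replicate 2 or 3, and the 3-month call without 3-month replicate 3. Sema6c was at 16.2, 25.2 and 22.5 CPM in sham and fell to 8.97, 8.93 and 13.5 at 7 days (log2 -1.02 ± 0.26, edgeR adjusted p = 0.012), a call lost without 7-day replicate 1 or 2. At 1 month it was at 19.5, 23.6 and 21.97 CPM, inside the sham range. Sema4g was at 32.5, 54.7 and 34.6 CPM in sham and fell to 27.8, 22.01 and 20.6 at 7 days (log2 -0.79 ± 0.25, edgeR adjusted p = 0.0377), which did not hold without sham replicate 2 or 7-day replicate 2 or 3. Sema5a, a semaphorin known to bind sulphated sugar chains, was at 216, 319 and 152 CPM in sham and 107 and 105 at 3 months (log2 -1.11 ± 0.24, edgeR adjusted p = 0.00641), and this call was lost without 3-month replicate 3. Sema5b and Sema6b did not pass edgeR's test at any time, although Sema5b passed at 3 months with no low-count filter, by DESeq2's Wald test and without sham replicate 1 (log2 -0.80, adjusted p = 0.00823).

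**Figure D4:**
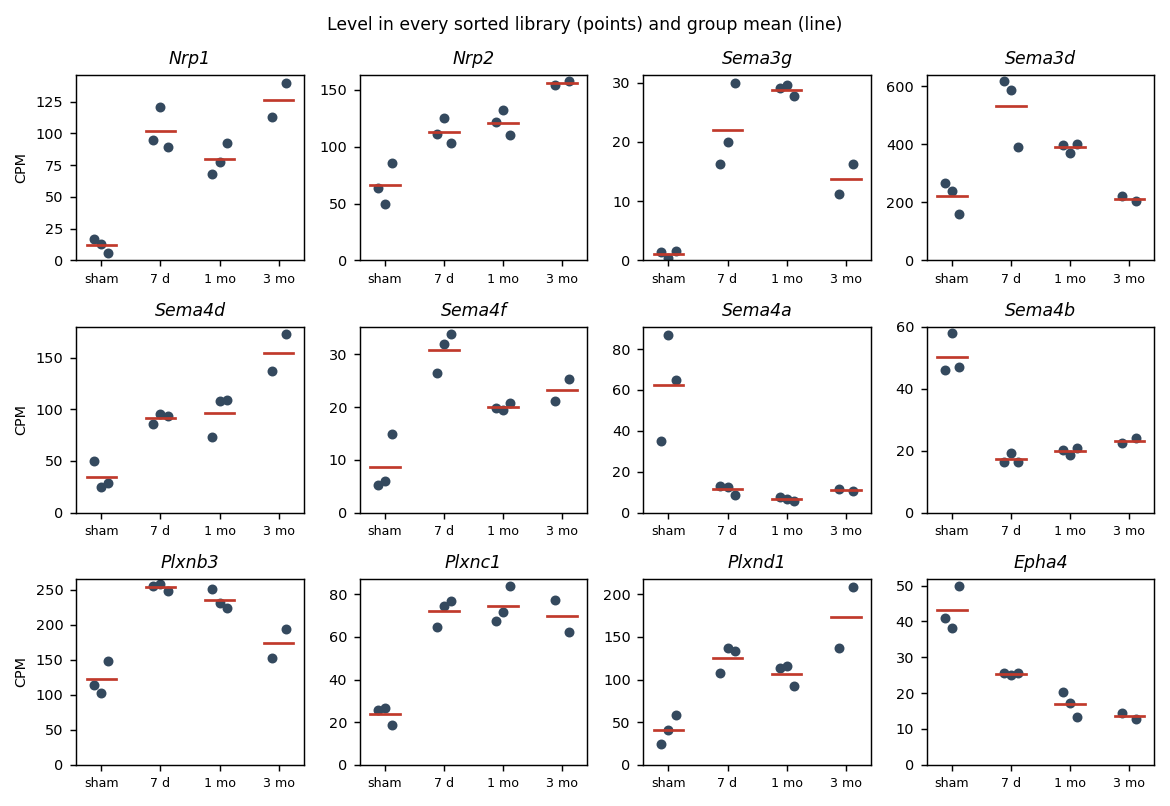
Level of 12 guidance genes in every sorted library (points; vertical axis in CPM from 0, scaled per gene) by group (horizontal axis, time after surgery), with the group mean as a red line. Nrp1, Nrp2, Sema3g, Sema4d, Sema4f, Plxnc1 and Plxnd1 are higher in each injured library than in any sham library, Sema4a, Sema4b and Epha4 are lower, and Sema3d is back within the sham range at 3 months.

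Among Eph receptors, the tyrosine kinases that bind ephrins on neighbouring cells, 1 of 14 rose and 3 fell at 7 days. Epha4, a receptor for both ephrin classes that is known from astrocytes of the injured cord, was at 41.0, 38.2 and 50 CPM in sham, 25.5, 25.0 and 25.7 at 7 days, 20.3, 17.2 and 13.2 at 1 month and 14.5 and 12.8 at 3 months. Every injured library lay below every sham library, and each 1-month and 3-month library lay below each 7-day library. The log2 change was -0.76 ± 0.21, -1.35 ± 0.21 and -1.66 ± 0.25 (edgeR adjusted p = 0.0191, 0.000658 and 0.000409). Its 7-day call was lost without sham replicate 3 or any 7-day library, and the later calls held under each alternative. Epha5 was at 35.6, 67.1 and 43.8 CPM in sham and 29.3, 28.0 and 19.4 at 7 days (log2 -0.93 ± 0.25, edgeR adjusted p = 0.0144), lost without sham replicate 2 or 7-day replicate 3, and did not pass later except without sham replicate 1 (log2 -0.85 and -0.92, adjusted p = 0.0271 and 0.0309 at 1 and 3 months). Epha10, Epha6 and Epha8, Eph receptors known mainly from neurons, stayed under 4 CPM in every sorted library. Epha1, Epha2, Epha3 and Epha7 did not pass edgeR's test against sham at any time. Without sham replicate 3, however, Epha2 passed at each time, at log2 1.18, 1.56 and 1.75 (adjusted p = 0.0413, 0.0126 and 0.0096), and Epha1 passed DESeq2's Wald test at 1 and 3 months (adjusted p = 0.0147 and 0.0214).

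Ephb2, the kinase whose promoter is printed above, was at 28.3, 25.7 and 31.6 CPM in sham, 72.3, 63.4 and 74.9 at 7 days and 48.1, 60.9 and 45.1 at 1 month, and rose at both times. At 3 months it was at 36.5 and 33.9 CPM, still above each sham library. The log2 changes were 1.30 ± 0.18 and 0.85 ± 0.18 (edgeR adjusted p = 0.000111 and 0.00442), and 0.31 ± 0.19 at 3 months (adjusted p = 0.346) did not pass. Ephb1 was at 22.3, 14.6 and 16.5 CPM in sham, 8.75, 8.57 and 8.86 at 7 days and 17.9, 20.8 and 18.4 at 1 month. The fall at 7 days was -1.03 ± 0.26 (edgeR adjusted p = 0.00975), lost without 7-day replicate 2. Ephb3, Ephb4 and Ephb6, the last of which lacks kinase activity, did not pass edgeR's test at any time. Ephb3 passed at 7 days by DESeq2's Wald test and without sham replicate 1, which gave log2 -0.70 (adjusted p = 0.0113), and at 3 months without that library (-0.66, adjusted p = 0.0419). Ephb4 passed at 3 months without 3-month replicate 1 (log2 1.21, adjusted p = 0.0417). By edgeR 0 of 8 ephrins passed at 7 days and at 1 month, with an unadjusted p under 0.05 for 1 of them at each time, and 1 fell at 3 months. At 7 days that was Efnb1, with a log2 difference of -0.61 ± 0.24 (edgeR adjusted p = 0.0894) and an adjusted p of 0.0484 by DESeq2's Wald test and 0.00805 without sham replicate 2. The ephrin that fell at 3 months, Efna1, a lipid-anchored ligand of EphA receptors, was at 13.7, 8.42 and 20.2 CPM in sham and 4.45 and 5.95 at 3 months (log2 -1.44 ± 0.43, edgeR adjusted p = 0.0401), which did not hold without sham replicate 3 or either 3-month library. Efnb2, a vascular and neural ligand of EphB receptors, was at 15.9, 6.21 and 7.75 CPM in sham and 15.6, 19.2 and 24.9 at 1 month, a log2 difference of 1.00 ± 0.34 that did not pass (adjusted p = 0.0742) but did with no low-count filter, by the Wald test and without sham replicate 1 (1.52, adjusted p = 0.00394).

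Slits are secreted repellents that act through robos. Slit2 was at 19.6, 21.6 and 18.3 CPM in sham and 29.5, 40.6 and 38.5 at 7 days, a log2 rise of 0.87 ± 0.25 (edgeR adjusted p = 0.0235) that was lost without sham replicate 3 or 7-day replicate 2 or 3. Its later differences of 0.37 ± 0.25 and 0.08 ± 0.28 did not pass. Slit1 was at 15.4, 14.6 and 15.8 CPM in sham, 20.8, 29.9 and 27.9 at 7 days and 10.3 and 5.52 at 3 months, with log2 differences of 0.78 ± 0.28 and -0.94 ± 0.32 that did not pass (edgeR adjusted p = 0.0671 and 0.0751), although both passed DESeq2's Wald test (adjusted p = 0.0318 and 0.0345). Robo1, the main slit receptor by level in these cells, was at 161, 174 and 144 CPM in sham, 116, 102 and 94.2 at 7 days, 152, 149 and 136 at 1 month and 98.3 and 103 at 3 months. It was lower at 7 days (-0.62 ± 0.15, edgeR adjusted p = 0.00797) and 3 months (-0.66 ± 0.17, adjusted p = 0.0174) and overlapped sham at 1 month. The 7-day call was lost without 7-day replicate 2 or 3, and the 3-month call without either 3-month library. Robo4, an endothelial receptor, was at 5.89, 2.55 and 0 CPM in sham and 12.7, 15.4 and 14.2 at 7 days, a log2 difference of 2.29 ± 0.78 just short of the threshold (edgeR adjusted p = 0.0534), which passed with DESeq2's size factors, with no low-count filter and without sham replicate 1 or 3. It was at 5.42, 6.71 and 7.51 CPM at 1 month, below each 7-day library, as was the endothelial marker sum, whose part was not tested. Slit3 and Robo2 did not pass edgeR's test at any time. Robo2, however, passed with no filter, by DESeq2's Wald test and without sham replicate 3 at both 1 and 3 months, with log2 changes of -1.07 and -1.22 by the Wald test (adjusted p = 0.0258 and 0.021).

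Netrins and their Unc5 receptors showed 2 rises at 7 days and no falls. Ntn1, highest of all guidance genes per kilobase, was at 368, 378 and 341 CPM in sham and 389.9, 344 and 451 at 7 days. The log2 difference was 0.12 ± 0.16 at 7 days, 0.16 ± 0.16 at 1 month and -0.24 ± 0.18 at 3 months, and none passed (edgeR adjusted p = 0.671, 0.607 and 0.424). Ntn5, a short netrin-like protein, was at 0.312, 0 and 0 CPM in sham and 2.61, 3.89 and 4.36 at 7 days, 5.42, 4.28 and 3.81 at 1 month and 1.96 and 9.52 at 3 months. It was called at each time (edgeR adjusted p = 0.00381, 0.00421 and 0.00373) from near absence, the 3-month call was lost without 3-month replicate 3, and 23.4% of its exon length overlaps the antisense gene Sec1, so without a stated strand setting its reads are uncertain. Unc5b, a netrin receptor known from tip cells of vessels, was at 4.83, 3.15 and 4.42 CPM in sham, 12.4, 11.0 and 15.3 at 7 days, 10.02, 7.75 and 6.67 at 1 month and 8.82 and 10.2 at 3 months. No injured library overlapped sham, and the log2 change was 1.64 ± 0.34 at 7 days and 1.20 ± 0.37 at 3 months (edgeR adjusted p = 0.00273 and 0.044), while 0.98 ± 0.33 at 1 month did not pass (adjusted p = 0.0723). By DESeq2's Wald test the 1-month difference passed (adjusted p = 0.00951). The 3-month call was lost with no low-count filter and without sham replicate 2 or either 3-month library. Ntn4, a netrin of basement membranes, and Unc5a, Unc5c and Unc5d did not pass edgeR's test against sham at any time. Ntn4 passed under 3 alternatives at 1 month and 5 at 3 months, among them no low-count filter (log2 0.78 and 0.86, adjusted p = 0.0303 and 0.0308). Without sham replicate 1, Unc5a passed at 7 days and 3 months (log2 -0.86 and -0.85, adjusted p = 0.0164 and 0.0443). Unc5c passed in opposite directions when a different sham library was left out, at log2 0.71 at 7 days without replicate 1 (adjusted p = 0.0286) and -0.69 at 3 months without replicate 3 (adjusted p = 0.0195).

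Other genes of the pathway were taken as 3 lists: 28 partner receptors and ligands, 56 intracellular effectors and 12 genes of myelin-associated inhibition. Of all genes tested, 9.87% were higher and 8.41% lower at 7 days, 6.23% and 5.83% at 1 month and 6.78% and 4.93% at 3 months. The medians over all genes were -0.06, -0.02 and -0.10. Of protein-coding genes, 14.0% were higher and 11.1% lower at 7 days, 8.6% and 7.8% at 1 month and 9.27% and 6.68% at 3 months. Of the partners, 6 rose and 3 fell at 7 days (median log2 change 0.01), 4 rose and 2 fell at 1 month (0.21), and 3 rose and 4 fell at 3 months (-0.20), so that 21.4% of them were higher at 7 days and 10.7% lower. Cxcl12, a chemokine that modulates semaphorin and slit signals, rose at 7 days by 1.67 ± 0.29 (edgeR adjusted p = 0.000695), and the repulsive guidance molecule Rgma fell, with a log2 change of -1.02 ± 0.21 (adjusted p = 0.00287). Of the effectors, 10 rose and 5 fell at 7 days (median 0.11), 6 rose and 5 fell at 1 month (0.21), and 7 rose and 5 fell at 3 months (-0.06), which at 7 days is 17.9% higher and 8.93% lower. Dpysl3, a collapsin response mediator, rose by 1.39 ± 0.17 at 7 days (edgeR adjusted p = 3.68e-05), the small GTPase Cdc42 by 0.99 ± 0.16 (adjusted p = 0.000441) and Adam10, the protease that sheds ephrins, by 0.98 ± 0.16 (adjusted p = 0.000453). Ngef, an exchange factor that binds Epha4, fell, with a log2 change of -2.07 ± 0.30 (edgeR adjusted p = 0.000172). Of the myelin inhibition list, 2 rose and 1 fell at 7 days, 2 rose at 1 month, and 3 rose and 1 fell at 3 months. Rtn4, which encodes Nogo, rose by 0.77 ± 0.16 (edgeR adjusted p = 0.00266) and its myelin companion Omg fell, with a log2 change of -0.48 ± 0.15 (adjusted p = 0.0315) at 7 days.

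Between injured time points few guidance genes passed edgeR's test in sorted cells as fitted here, and more passed with the 2 groups concerned fitted alone. From 7 days to 1 month 3 rose and none fell, against 1.52% and 1.09% of all genes. They were Ephb1 (log2 1.13 ± 0.26, edgeR adjusted p = 0.0306), Sema6c (1.05 ± 0.26, adjusted p = 0.046) and Sema3e (0.88 ± 0.22, adjusted p = 0.044), a ligand that binds Plxnd1 directly. Sema3e was at 24.2, 21.0 and 17.0 CPM at 7 days and 45.8, 36.0 and 33.0 at 1 month, and the libraries of both times did not overlap for any of the 3. All 3 calls were lost whichever of the 6 libraries was left out, with a count of 0 each time. With the 2 groups alone, 18 of 65 guidance genes were called, as were 3560 of all 20662 genes. DESeq2's Wald test called 8 guidance genes and 1763 genes in all. From 1 to 3 months 0 of 66 passed, against 0.103% of all genes higher and 0.284% lower. By the unadjusted p under 0.05, 17 of 66 guidance genes differed, as did 2859 of all 24286 genes. DESeq2's Wald test called 3 guidance genes and 848 genes in all. With the 2 groups alone, 10 of 65 guidance genes were called, as were 1277 of all 21798 genes. By edgeR as fitted here, the smallest p was that of Sema3d, at log2 -0.88 ± 0.24 (edgeR adjusted p = 0.138). Its 1-month and 3-month libraries did not overlap. These comparisons show what passed at this number of libraries and not that the levels were the same.

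In unsorted tissue, 9 of 67 guidance genes were higher at 3 months than at 1 month and 5 were lower, where 6.69% of all 19652 genes tested were higher and 8.01% lower (edgeR). Among protein-coding genes the shares were 7.81% and 9.11%. Robo2, a slit receptor, had the smallest p of the guidance genes: 46.2, 43.5 and 47.3 CPM at 1 month and 71.3, 72.1 and 70.0 at 3 months, a log2 change of 0.64 ± 0.06 (edgeR adjusted p = 0.00272). Plxna4, a partner of Nrp1, was at 54.1, 52.8 and 58.0 and then 76.1, 74.7 and 75.0 CPM (0.45 ± 0.06, edgeR adjusted p = 0.00611). Efna5, an ephrin with a lipid anchor, was at 10.3, 9.55 and 9.40 and then 15.5, 16.9 and 15.4 CPM (0.71 ± 0.09, edgeR adjusted p = 0.0068). In these 3 genes the replicates of each time lay close together and well apart from the other time.

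Sema6d rose from 173, 174 and 171 to 213, 238.8 and 230.3 CPM (0.40 ± 0.06, edgeR adjusted p = 0.011). Slit1, Sema3e, Sema4f, Epha4 and Plxnc1 also rose, by 0.63, 0.67, 0.43, 0.45 and 0.93 on the log2 scale. Plxnc1 was at 31.3, 29.3 and 28.1 CPM at 1 month and 81.2, 38.2 and 49.1 at 3 months, so its mean rests largely on 3-month replicate 1. On the falling side Sema4d was at 169, 162 and 154 CPM and then 125, 121 and 127 (-0.38 ± 0.06, edgeR adjusted p = 0.0103). Plxnb2 went from 247, 259 and 218 to 173, 140.2 and 154 CPM (-0.63 ± 0.10, edgeR adjusted p = 0.0105). Sema4g went from 60.4, 57.0 and 61.4 to 39.1, 48.5 and 43.5 CPM (-0.45 ± 0.09, edgeR adjusted p = 0.0185), and Plxnb1 from 231, 214 and 220.3 to 184, 190.1 and 186 (-0.25 ± 0.06, adjusted p = 0.0307). Epha8 fell from 17.1, 17.0 and 18.1 to 11.3, 12.8 and 14.2 CPM (-0.45 ± 0.11, edgeR adjusted p = 0.0319). Of the 14 calls, those of Robo2 and Efna5 held in every alternative and the other 12 were lost without 1-month replicate 1. The count ran from 2 without 1-month replicate 1 to 25 without 3-month replicate 1. Over the same interval the microglia and macrophage sum in tissue was 6525 to 8833 CPM at 1 month and 2619 to 3822 CPM at 3 months. The neuron sum was 4167 to 5480 CPM at 1 month and 6164 to 7067 CPM at 3 months. The oligodendrocyte sum was 25680 to 28050 CPM and then 19150 to 23660, the astrocyte sum 17580 to 19320 and then 14900 to 15910, and the precursor sum 922 to 957 and then 711 to 797. Their part in these changes was not tested. Of the other pathway genes in tissue, 2 partners rose and 5 fell, 7 effectors rose and 1 fell, and 1 gene of the myelin inhibition list rose, the neurotrophin receptor Ngfr (2.88 ± 0.69, edgeR adjusted p = 0.0331).

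**Figure D5:**
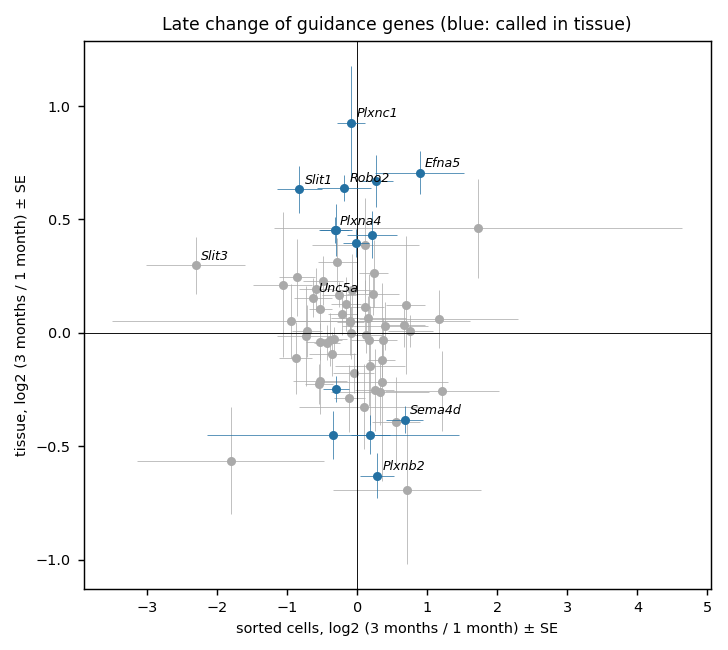
Log2 change from 1 to 3 months after injury in sorted cells (horizontal axis, ± SE) and in tissue (vertical axis, ± SE) for each of 66 guidance genes; blue points passed the test in tissue, and none passed it in sorted cells. Robo2, Efna5 and Plxnc1 lie high on the tissue axis, while Sema4d and Plxnb2 lie below 0 in tissue and above 0 in sorted cells.

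The targeted genes were checked before the knockdown comparisons. In the Zeb2 set, Zeb2 was at 147 and 134 CPM in controls and 23.2 and 16.1 in knockdown libraries, a log2 difference of -2.83 ± 0.33 with an edgeR adjusted p of 0.9988. In the Zeb2os set, Zeb2os was at 5.82 and 3.80 CPM in controls and at 3.14 and 4.32 in the libraries labelled Zeb2os knockdown, so the groups overlapped and the target's level does not separate them as the labels do. Zeb2 itself was at 51.7 and 70.2 CPM in those controls and 49.9 and 57.5 in the libraries labelled knockdown. Marker sums differed between the arms of both sets. In the Zeb2os set the fibroblast and mural sum was 14110 to 17310 CPM in controls and 19830 to 20460 in the libraries labelled knockdown, the astrocyte sum 1789 to 2013 and then 932.9 to 975.6, and the endothelial sum 88.1 to 113 and then 167 to 172. In the Zeb2 set the fibroblast and mural sum was 11700 to 19190 CPM in controls and 6311 to 10540 in knockdown libraries. The part of these cells in the culture results was not tested.

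In the libraries labelled Zeb2os knockdown, 1 of 65 guidance genes rose and none fell, against 0.121% and 0.0675% of all 20741 genes tested. The gene was Sema7a, at 73.8 and 74.6 CPM in controls and 224 and 228 in the labelled knockdown libraries, a log2 change of 1.61 ± 0.21 (n = 2 and 2, edgeR adjusted p = 0.0296). Both pairs were tight, and the call was lost without either knockdown library, when the arm has 1 sample and is assumed to vary as the other does. Next by p was Sema3a, at 39.6 and 45.8 CPM in controls and 79.7 and 90.2 in labelled knockdown libraries (0.99 ± 0.21, adjusted p = 0.113), which did not pass. Plxnb1 was at 61.6 and 94.9 CPM in controls and 40.4 and 33.1 in labelled knockdown libraries (-1.09 ± 0.25, adjusted p = 0.145). Ntn4, at 61.8 and 74.0 CPM in controls and 119 and 116 in the labelled knockdown libraries, came next among those with higher values (0.79 ± 0.21, adjusted p = 0.187). Sema4d, at 13.4 and 12.8 and 7.14 and 4.38 CPM, had a log2 difference of -1.19 ± 0.29 (adjusted p = 0.161). By the unadjusted p under 0.05, 18 of 65 guidance genes differed, as did 2424 of all 20741 genes. Leaving out either control library, which leaves 1 sample in that arm, gave more calls among guidance genes and over all genes alike.

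In the Zeb2 set 0 of 62 guidance genes passed, as did 0% of all 17608 genes in either direction, so not even the targeted gene was called by edgeR as fitted here. At an unadjusted p under 0.05 there were 7 guidance genes and 683 genes in all. DESeq2's Wald test called 0 guidance genes and 33 of all 27755 genes. With no low-count filter 0 guidance genes and 142 genes in all were called, and with the replicate block 0 and 80. Sema4b had the smallest p, at 18.6 and 25.0 CPM in controls and 55.0 and 56.3 in knockdown libraries (log2 1.35 ± 0.31, adjusted p = 0.999). Nrp1 was at 153 and 147 CPM in controls and 95.0 and 60.7 in knockdown libraries (-0.94 ± 0.33), and Nrp2 at 175 and 124 CPM in controls and 97.8 and 66.6 in knockdown libraries (-0.86 ± 0.34), again without passing. The other 4 were Plxna2 (log2 difference -0.91), Sema4d (1.20), Sema3a (-1.37) and Ephb1 (0.92). Leaving out knockdown replicate 2, which leaves 1 sample in that arm, gave more calls among guidance genes and over all genes alike. Sema7a was at 30.8 and 478 CPM in the 2 knockdown libraries, which differed more from each other than from the controls at 207 and 352. The 4 genes whose promoters are printed above gave log2 differences of 0.47 (Sema4c), -0.43 (Ephb2), -0.63 (Sema3d) and -1.25 (Sema4f), and none passed. With 2 libraries per arm and this spread, differences of these sizes did not reach the threshold.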

How the data were processed

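RNA was sequenced from 25 libraries: 11 of sorted cells, 6 of tissue and 8 of cultured astrocytes. The authors deposited 4 tables of whole-number counts per gene, 1 each for sorted cells, tissue, the Zeb2os set and the Zeb2 set. The submitters' processing notes name the mm10 build and, without saying what each did, Cufflinks 2.2.1, TopHat2 2.1.0, FastQC and DESeq2. The read counter, gene annotation and strand setting are not given in the sources used here. Per the labels' protocols, libraries were made with a directional kit. From these counts each table was fitted separately with edgeR 4.0.16 in R 4.3.3 (TMM scaling, filterByExpr with a minimum count of 10, quasi-likelihood F test, Benjamini-Hochberg adjustment over all genes tested, calls at 0.05), with all 4 sorted groups in 1 fit, and code was tested on simulated data. The SE of a log2 change is its size divided by the square root of F. The level per kilobase is CPM over the union of exons in GENCODE M21 (GRCm38). Depth and counting error limit low genes most, and 2 or 3 libraries per group limit all.

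The members and gene lists were chosen with earlier results of these data known. Members past the threshold were named by smallest adjusted p, and the 2 highest members per family by level per kilobase were named whatever their test. Values in every library are given for the most significant members of each comparison. Exons of 14 members overlap an antisense gene, over 10% of exon length in 4 (Ntn5, Efna3, Plxna1 and Efna4), whose counts are uncertain without the strand setting. Rows without a gene name, 3 in the Zeb2 table, were left out and held under 0.01% of its counts. Alternatives were DESeq2 1.42.0 size factors and Wald test, no filter, the replicate block, the compared groups alone and each library left out.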

Additional observations from a re-analysis of the deposited data

Results flagged for a closer look

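For 6 guidance genes, every 3-month library of sorted cells lay on one side of every 1-month library while tissue lay on the other side. How many of all genes show the same was not counted, so the 6 are not read as an excess. None of them passed edgeR's test between these times in sorted cells, and the difference between sorted cells and tissue was not tested. The log2 change from 1 to 3 months was -0.33 in sorted cells and 0.45 in tissue for Plxna4. Plxnb2 gave 0.28 in sorted cells and -0.63 in tissue, and Sema4d gave 0.67 and -0.38. Slit1 gave -0.83 in sorted cells and 0.63 in tissue, and Slit3 gave -2.31 and 0.30. Unc5a gave -0.63 in sorted cells and 0.16 in tissue. The sorted cells and the tissue came from different mouse lines, and over the same interval the microglia and macrophage marker sum was higher at 3 months in sorted cells and lower at 3 months in tissue. The part of these cells in the values was not tested.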

How the results depend on the processing

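At 7 days (24 guidance genes called) leaving out 1 library gave 17 to 31, the other settings 22 to 34, and 16 of the 24 held everywhere. At 1 month (20) it gave 13 to 25, the other settings 16 to 26, and 13 held everywhere. At 3 months (19) it gave 9 to 27, the compared groups alone gave 8 and the other settings 19 to 26, and 8 held everywhere. From 7 days to 1 month (3), no filter gave 6, DESeq2's Wald test 8, the compared groups alone 18, and leaving out any library 0. The count over all genes there was 633 as fitted, then 1406, 1763 and 3560 in the same order, and 122 to 218 with a library left out. From 1 to 3 months in sorted cells (0), no filter gave 3, DESeq2's Wald test 3, the compared groups alone 10, and leaving out any 1-month library 0. The count over all genes there was 94 as fitted, then 749, 848 and 1277 for the first 3 of these settings. In tissue (14) the range was 2 to 25, and over all genes 305 to 5980. Leaving out 1 library gave 2867 to 5504 calls over all genes at 7 days and 1727 to 3471 at 1 month, against 4440 and 2927 as fitted. The other settings gave 3495 to 5924 at 7 days and 1959 to 4408 at 1 month. At 3 months 2844 genes were called as fitted. Leaving out a sham library gave 2819 to 3540 there, the compared groups alone 885 and the other settings 2710 to 4626. For Zeb2os (1), no filter gave 7, DESeq2's Wald test 7 and leaving out a library 0 to 23. For Zeb2 (0), leaving out a library gave 0 to 6. Sema3b at 7 days turned from -0.24 to 1.56 without sham replicate 3, with leave-one-out values from -0.75 to 1.56 and adjusted p = 0.0115 at the upper end against 0.86. Without that library it passed at 1 and 3 months too (log2 3.13 and 3.45). The cause of these shifts was not tested.

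Replicate numbers are shared between groups, and the labels state no pairing. Deviations of same-numbered libraries correlated at -0.04 to 0.08 in sorted cells and -0.27 to -0.01 in tissue. The value was -0.03 for Zeb2os and 0.39 for Zeb2. With 2 libraries per arm, both same-numbered pairs give the same value by construction, so each culture set holds 1 value. That value cannot settle whether the Zeb2 libraries are paired. The numbers were not taken to pair the libraries in any set. With the replicate block the counts of guidance genes were 24, 21, 19, 2 and 0 in the sorted comparisons in the order above, 5 in tissue, 6 for Zeb2os and 0 for Zeb2. Over all genes the block gave 4302, 2845, 2710, 631 and 70 calls in the sorted comparisons, where 4440, 2927, 2844, 633 and 94 were called as fitted. It gave 506 in tissue against 2889 as fitted, 554 for Zeb2os against 39, and 80 for Zeb2 against 0. Of the calls made without the block, 24 of 24, 19 of 20, 17 of 19 and 2 of 3 were kept in the first 4 sorted comparisons, 5 of 14 in tissue and 1 of 1 for Zeb2os. Those lost in sorted cells were Sema3f at 1 and 3 months, Unc5b at 3 months and Sema3e between 7 days and 1 month, and the block called Sema3b and Robo2 at 1 and 3 months.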
